A study of Mus musculus with 8 samples.

Results

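The ribosome biogenesis factors described here are 54 mouse genes whose proteins build ribosomes in the nucleolus, out of 45232 genes in the deposited table. They were chosen by name with the difference between the media already known, so that difference was part of the choice, and 53 were found under their present symbol. Utp4 is listed under its older symbol Cirh1a (ENSMUSG00000041438). For description they were divided into 3 box C/D proteins, 4 box H/ACA proteins, 5 nucleolar organisers and chaperones, 21 factors of 40S subunit assembly and 21 factors of 60S subunit assembly.

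RNA came from CD8+ T cells of OT-I mice, which carry a transgenic receptor for SIINFEKL, a peptide of ovalbumin. All cells were activated with that peptide and grown with IL-2 for 5 days in RPMI with 10% fetal bovine serum. The 4 libraries called RPMI here had no further addition, and the 4 called pEtn had 470 µM o-phosphoethanolamine, a precursor of the membrane lipid phosphatidylethanolamine. The labels do not give the animals' age or sex, or say whether the numbered libraries come from separate animals or cultures, so every spread below is that between libraries and may be technical.

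Ribosome assembly begins in the nucleolus, where RNA polymerase I transcribes a long precursor of ribosomal RNA. Box C/D and box H/ACA particles, each a small nucleolar RNA with its core proteins, guide ribose methylation and pseudouridylation of the precursor, while the small subunit processome folds and cuts the part that becomes the 40S subunit and another chain of factors builds the 60S subunit. T cells enlarge their nucleoli and raise ribosome production after activation, before they divide, and the transcription factor Myc is a known activator of many of these genes.

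Library totals ran from 29223765 to 35504571 counts. The 6 T cell markers were Cd8a and Cd8b1, of CD8 T cells, and Cd3d, Cd3e, Cd3g and Thy1, of T cells in general. They summed to 2431 to 2838 CPM (counts scaled to library size) in RPMI and 2489.6 to 2942 CPM with pEtn. By contrast, 4 B cell markers summed to at most 3.14 CPM with Ms4a1 at 0 in every library. The 8 myeloid and dendritic markers summed to at most 10.2 CPM with Adgre1 at 0, and 3 erythroid markers to at most 0.469 CPM. The 3 markers of CD4 and regulatory T cells summed to 15.4 to 25.0 CPM in RPMI and 27.5 to 39.9 CPM with pEtn, nearly all of it Zbtb7b, which rose (edgeR adjusted p = 0.0262), and the 2 NK markers to 16.1 to 31.5 and 5.94 to 33.8 CPM. Cd8a itself had 316 ± 40.3 CPM in RPMI and 339 ± 65.8 CPM with pEtn (SD, n = 4, edgeR adjusted p = 0.711). In both media, libraries 3 and 4 resembled each other far more than they resembled libraries 1 and 2. In such bulk samples, fewer cells of a type and less RNA per cell cannot be told apart.

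All 54 genes were lower with pEtn, by 0.23 to 1.17 on the log2 scale, with a median log2 fold change of -0.68 against 0.02 over the 11862 genes tested. In 53 of the 54 the 4 pEtn libraries all lay below the 4 RPMI libraries, beside 10.6% of all genes tested without overlap in this direction and 9.74% in the other, and the exception was Imp3. The fit over all genes (edgeR's quasi-likelihood test, adjusted p under 0.05) called 51 of the 54 lower and 0 higher, beside 7.56% of all genes called lower and 5.22% called higher (12.8% in all). Because the genes were chosen with this contrast known, these counts describe the set and support nothing further, and no p-value is given for a member. The genes outside the call were Brix1, Imp3 and Bms1, and 40 of the 54 were called in every fit that left out a library. The share of all genes called in every such fit was not computed, so that count is a description only. With replicates 3 and 4 of each medium summed into 1 library, 25 of the 54 were called lower and 0 higher, beside 2.05% and 0.659% of all genes (2.71% in all), at an unmoved median of -0.68. With the replicate number as a block, 53 were called lower and 0 higher, beside 16.5% and 15.8% of all genes (32.3% in all), and with the block and the summed libraries 51 and 0, beside 10.7% and 8.71% (19.4% in all).

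Summed over the 54 genes, the level was 13209, 12349, 14151 and 14833 CPM in RPMI replicates 1 to 4 and 7477, 9055, 9658 and 9385 CPM in pEtn replicates 1 to 4. Thus 1.23% to 1.48% of the scaled counts in RPMI and 0.748% to 0.966% with pEtn came from these genes. Nucleolin and nucleophosmin made up much of that sum, and without Ncl and Npm1 it ran from 7399 to 8200 CPM in RPMI and from 4216 to 5105 CPM with pEtn. Since 53 of the 54 genes did not overlap singly, the gap in either sum adds nothing to that.

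The box C/D proteins were lower together. Fbl (ENSMUSG00000046865), fibrillarin, the enzyme that methylates ribose on ribosomal RNA, stood at 209.9, 214, 269 and 267 CPM in RPMI replicates 1 to 4 and at 121, 134, 179 and 177 CPM with pEtn. Within both media replicates 1 and 2 were the low pair and 3 and 4 the high pair, and the media did not overlap. Its log2 fold change was -0.65 (SE 0.15). Nop56, one of the paired scaffold proteins of the particle, stood at 411, 412, 339.9 and 355 CPM in RPMI and 213, 256, 229 and 229.6 CPM with pEtn, a log2 fold change of -0.71 (SE 0.10). Its RPMI libraries were ordered the other way round from those of Fbl, replicates 1 and 2 being the higher. Nop58, the paralogous scaffold, stood at 440.2, 431, 458 and 504 CPM in RPMI and 253, 352, 323 and 318 CPM with pEtn, a log2 fold change of -0.56 (SE 0.11), with pEtn replicate 1 far below the other pEtn libraries.

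All 4 core proteins of the box H/ACA particle were lower by a similar amount, between 0.59 and 0.75 on the log2 scale. Dkc1 (ENSMUSG00000031403), dyskerin, the pseudouridine synthase that also holds the telomerase RNA, stood at 276, 234, 271 and 282 CPM in RPMI and 135, 163, 173 and 163 CPM with pEtn. Every pEtn library lay well below the lowest RPMI library, and the log2 fold change was -0.75 (SE 0.10). Nhp2, an RNA-binding core protein, had 142, 124, 174 and 167 CPM in RPMI and 74.4, 90.1, 111 and 105 CPM with pEtn (log2 fold change -0.67, SE 0.15). Gar1, which helps to place and release the substrate RNA, had 59.7, 59.97, 66.2 and 65.9 CPM in RPMI and 35.9, 45.7, 45.9 and 40.2 CPM with pEtn (log2 fold change -0.59, SE 0.10). For both, no pEtn library reached the lowest RPMI library. Nop10, a small protein that bridges the core, was at -0.64 (SE 0.17) and its pEtn libraries, from 30.7 to 46.3 CPM, came close to the lowest RPMI library at 47.8 CPM.

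Among the nucleolar organisers and chaperones the most abundant genes had the smallest differences. Npm1 (ENSMUSG00000057113), nucleophosmin, a histone and ribosome chaperone of the nucleolus, stood at 2725, 2456, 2926 and 3392 CPM in RPMI and 1671, 2011, 2227 and 2256 CPM with pEtn. Ncl, nucleolin, which binds precursor ribosomal RNA, stood at 2980.3, 2494, 3025 and 3365 CPM in RPMI and 1590.1, 2125, 2326 and 2263 CPM with pEtn. The log2 fold changes were -0.49 (SE 0.13) and -0.52 (SE 0.14). In each gene pEtn replicate 1 was the lowest library and RPMI replicate 4 the highest, and the gap between the highest pEtn library and the lowest RPMI library was small. Npm1 has processed copies in the mouse genome that may share its reads.

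Larger differences in that group were those of Mybbp1a and Nolc1. Mybbp1a, a nucleolar Myb-binding protein that associates with RNA polymerase I, stood at 488, 501, 556 and 514 CPM in RPMI and 245, 276, 293 and 270.0 CPM with pEtn, a log2 fold change of -0.93 (SE 0.09). Nolc1, a chaperone of small nucleolar particles, was at -0.91 (SE 0.10), with 348, 322, 338 and 326 CPM in RPMI and 149, 175, 197 and 188 CPM with pEtn. In both genes the levels within a medium were close and the media far apart. Lyar, a nucleolar zinc finger protein, had 134, 110.3, 147 and 153 CPM in RPMI and 61.1, 89.9, 106 and 100.4 CPM with pEtn and a log2 fold change of -0.61 (SE 0.17), and its highest pEtn library lay just below its lowest RPMI library.

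**Figure D1:**
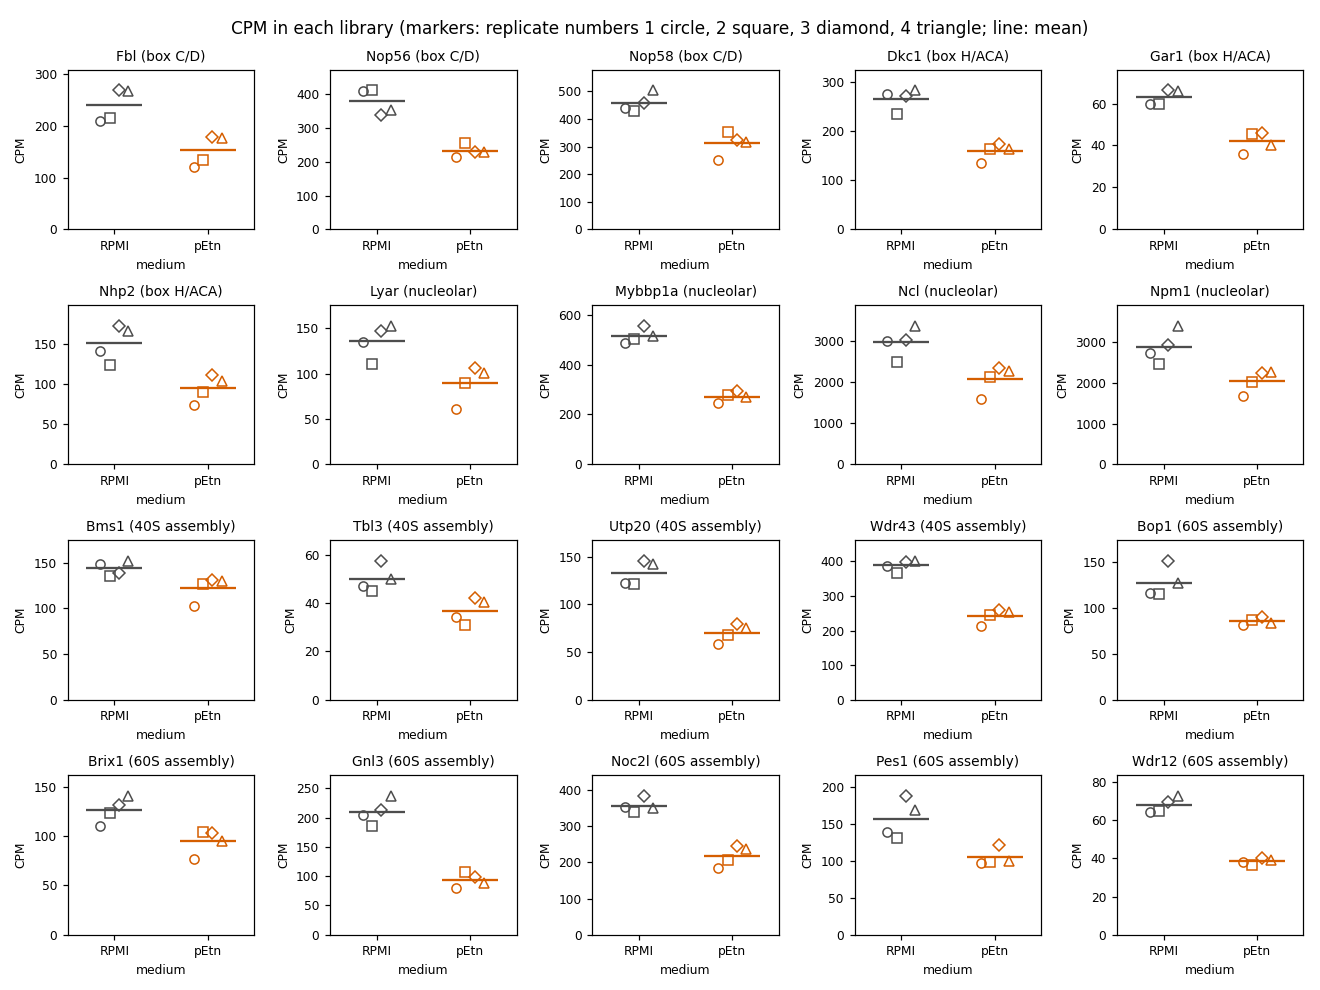
CPM after TMM scaling of 20 genes in the 4 RPMI (grey) and 4 pEtn (orange) libraries, with each marker a library and each line a group mean, and every vertical axis starting at 0. Each of the 20 genes has its pEtn libraries below its RPMI libraries, widely so for Gnl3 and narrowly for Bms1 and Lyar.

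Factors of 40S assembly had a median log2 fold change of -0.68 over 21 genes, 19 of them called lower, beside 7.56% of all genes. Of the 21, the 5 that belong to the UTP-A complex, the first part of the processome to bind the nascent precursor, were alike. They stood at -0.75 (Utp4), -0.75 (Wdr75), -0.68 (Wdr43), -0.66 (Heatr1) and -0.52 (Utp15). Wdr43 (ENSMUSG00000041057) stood at 387, 367, 399 and 402 CPM in RPMI and 212, 244, 259 and 254 CPM with pEtn, with SE 0.09. The spread within each medium was small beside the distance between them. Tbl3, of the UTP-B complex, had 46.9, 45.1, 57.5 and 49.8 CPM in RPMI and 34.3, 30.8, 41.9 and 40.3 CPM with pEtn and a log2 fold change of -0.44 (SE 0.13), and its pEtn libraries came close to RPMI replicate 2.

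The U3 proteins differed among themselves. Rrp9, which binds the U3 small nucleolar RNA, had 67.7, 43.8, 87.5 and 75.4 CPM in RPMI and 33.9, 38.4, 35.4 and 38.6 CPM with pEtn, a log2 fold change of -0.91 (SE 0.18). Imp3, which with Imp4 joins U3 to the precursor, had 67.1, 45.4, 86.2 and 80.2 CPM in RPMI and 45.8, 44.9, 52.4 and 53.5 CPM with pEtn (log2 fold change -0.51, SE 0.18). RPMI replicate 2 was the lowest RPMI library for both genes, and for Imp3 it lay within the range of the pEtn libraries. Imp4 had 99.7, 115, 120.2 and 108 CPM in RPMI and 88.1, 87.4, 91.1 and 90.2 CPM with pEtn, a log2 fold change of -0.31 (SE 0.09), with a tight pEtn group below its lowest RPMI library.

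Other processome genes spanned the whole range of the 40S group. Utp20, a large repeat protein of the processome, had 122, 121, 146 and 142 CPM in RPMI and 58.3, 68.1, 79.7 and 74.9 CPM with pEtn, the largest difference of the 21 (log2 fold change -0.92, SE 0.12). Rcl1, whose yeast counterpart is the partner of the GTPase Bms1, was close behind at -0.92 (SE 0.08), with 57.1, 60.8, 61.8 and 62.97 CPM in RPMI and 32.8, 32.1, 31.5 and 32.2 CPM with pEtn. The 4 pEtn libraries of Rcl1 were nearly equal. Bms1 itself had 149, 136, 139 and 152 CPM in RPMI and 103, 127, 131 and 130.4 CPM with pEtn and the smallest difference of all 54 genes, -0.23 (SE 0.10), and was not called. Its pEtn replicates 2 to 4 lay just below RPMI replicate 2. The remaining early factors were Nop14 at -0.70, Nol10 at -0.66, Nol6 at -0.61 and Noc4l at -0.59.

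The late 40S factors, which act on the particle as it leaves the nucleolus, were lower by 0.43 to 0.88 on the log2 scale. Nob1, the endonuclease that makes the final cut at the end of the small ribosomal RNA, had 70.97, 74.7, 87.4 and 80.6 CPM in RPMI and 44.3, 43.2, 41.7 and 40.96 CPM with pEtn, a log2 fold change of -0.88 (SE 0.09). Its partner Pno1 had 70.7, 71.7, 102 and 103 CPM in RPMI and 43.2, 55.2, 59.7 and 58.99 CPM with pEtn (log2 fold change -0.68, SE 0.16). In Pno1, RPMI replicates 3 and 4 were well above RPMI replicates 1 and 2. Rrp12 stood at -0.72, Tsr1 at -0.70 and Ltv1, which holds a place on the particle until its release, at -0.43.

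Factors of 60S assembly had the lowest median of the 5 groups, -0.77 over 21 genes, 20 of them called lower, beside 7.56% of all genes. The 4 genes that were at least 2-fold lower all belonged to this group: Gnl3, Nop16, Nop2 and Nle1. Of all genes tested, 431 were at least 2-fold lower. The ranges of the groups overlapped, from -1.17 to -0.41 for 60S factors and from -0.92 to -0.23 for 40S factors, and the difference between groups of genes was not tested.

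Gnl3 (ENSMUSG00000042354), nucleostemin, a nucleolar GTPase known from stem and dividing cells, had the largest difference of the 54, from 205, 186, 213 and 237 CPM in RPMI to 79.7, 108, 97.8 and 87.7 CPM with pEtn, -1.17 (SE 0.12) on the log2 scale. Nop16 had 73.9, 80.2, 78.3 and 72.9 CPM in RPMI and 28.8, 37.5, 34.97 and 34.4 CPM with pEtn (log2 fold change -1.17, SE 0.10). Nop2, a methyltransferase of the large ribosomal RNA, had 166, 178, 176 and 161 CPM in RPMI and 82.4, 87.8, 83.01 and 79.8 CPM with pEtn, with a log2 fold change of -1.03 (SE 0.08). In all these genes the highest pEtn library lay far below the lowest RPMI library. Nle1, a factor removed from the pre-60S particle by the ATPase Mdn1, had the lowest CPM of the 54, at 29.1, 30.3, 32.8 and 27.7 CPM in RPMI and 15.7, 14.4, 16.00 and 13.4 CPM with pEtn (log2 fold change -1.01, SE 0.11). A second GTPase gene, Gnl2, stood at -0.61 and a second methyltransferase gene, Ftsj3, at -0.63.

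The PeBoW complex of Pes1, Bop1 and Wdr12 is needed to process the precursor of the large ribosomal RNAs. Pes1 had 139, 130.3, 188 and 169 CPM in RPMI and 97.7, 98.4, 122 and 100.4 CPM with pEtn, Bop1 116, 115, 152 and 127 and 81.5, 86.6, 90.5 and 84.2 CPM, and Wdr12 64.2, 64.7, 69.5 and 72.8 and 38.4, 36.8, 39.98 and 39.1 CPM. The log2 fold changes were -0.58 (SE 0.13), -0.57 (SE 0.11) and -0.81 (SE 0.09). Pes1 and Bop1 were highest in RPMI replicate 3, whereas Wdr12 was nearly level within each medium. Noc2l and Noc3l, which act as partners in early 60S particles, were at -0.71 and -0.67. Noc2l had 354, 340.0, 384 and 350.0 CPM in RPMI and 186, 208, 245 and 236 CPM with pEtn.

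Other 60S factors were Grwd1, a chaperone of a ribosomal protein, at -0.94, Sdad1 at -0.82, Rrp15 at -0.81, Rrs1, which helps to bring in the small 5S particle, at -0.81, Ppan at -0.79, Mrto4 at -0.77, Rrp1b at -0.76, Wdr74 at -0.66 and Ebna1bp2 at -0.64. Brix1, which is also needed for 60S assembly, had 110.4, 123, 132 and 141 CPM in RPMI and 76.7, 104, 104 and 95.7 CPM with pEtn and the smallest difference of the group, -0.41 (SE 0.12), and was not called. Its pEtn libraries stayed below the RPMI libraries, with pEtn replicate 2 close to RPMI replicate 1.

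Levels between genes were compared per transcript length, in TPM (the authors' deposited values, scaled by gene length and library). Npm1 led at 2810.1 ± 353 TPM in RPMI and 2008 ± 255 TPM with pEtn (SD, n = 4), followed by Ncl at 759 ± 86.8 TPM in RPMI and 534 ± 81.9 TPM with pEtn, Fbl at 539 ± 64.8 TPM in RPMI and 345 ± 66.2 TPM with pEtn and Nhp2 at 345 ± 48.8 TPM in RPMI and 218 ± 36.1 TPM with pEtn. Npm1, Ncl and Fbl were each separated from the next gene by more than the SD of either, whereas Nhp2 and Noc2l (325 ± 17.4 TPM in RPMI and 199.9 ± 23.6 TPM with pEtn) were not. Over both media the median of the 54 genes was 93.5 TPM, against 17.6 TPM for all genes tested, and 53 of the 54 lay above that median. The exception was Wdr12, at 14.8 ± 0.677 TPM in RPMI and 8.46 ± 0.331 TPM with pEtn (SD, n = 4), although its CPM lay within the range of many members, and TPM divides by the length of the annotated gene model. Next lowest were Nle1 at 24.2 ± 1.78 TPM in RPMI and 12.1 ± 0.956 TPM with pEtn and Tbl3 at 22.8 ± 2.36 TPM in RPMI and 17.00 ± 2.38 TPM with pEtn, whose levels in RPMI lay within the SD of each other. Within the box H/ACA particle Nhp2 exceeded Dkc1 (168 ± 13.9 TPM in RPMI and 101 ± 9.31 TPM with pEtn), Nop10 (138 ± 24.96 TPM in RPMI and 89.3 ± 15.2 TPM with pEtn) and Gar1 (95.7 ± 4.21 TPM in RPMI and 64.1 ± 6.39 TPM with pEtn). Across the 54 genes the log2 fold change was only weakly related to level (Spearman's rho 0.17, n = 54 genes measured in the same libraries).

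**Figure D2:**
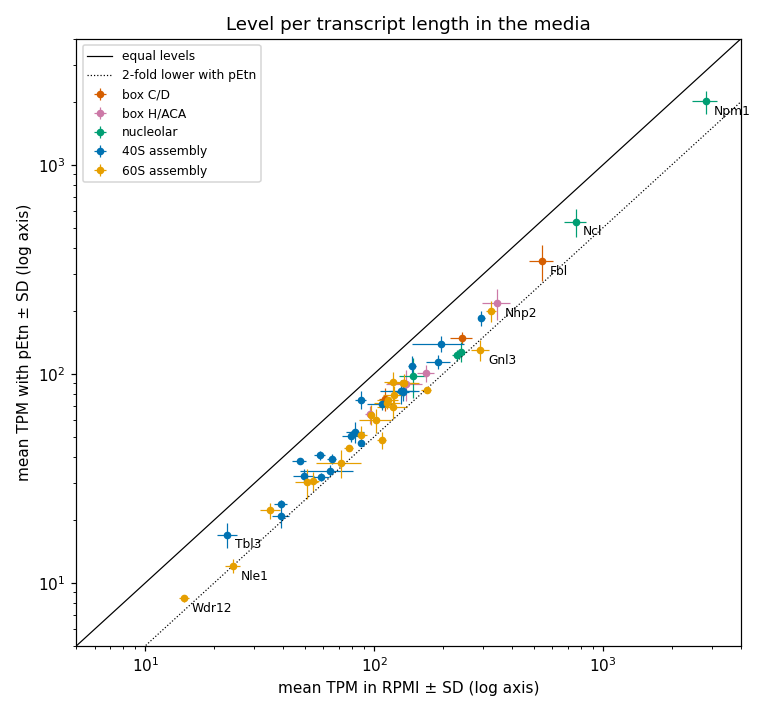
Mean TPM of the 54 genes in RPMI (horizontal) and with pEtn (vertical), both on log axes, with SD over 4 libraries as bars and colours for the 5 groups. All points lie below the line of equal levels, and 4 genes of 60S assembly lie at or beyond the dotted line of a 2-fold lower level.

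The difference was present in each replicate number. All 54 genes had a lower CPM in the pEtn library than in the RPMI library of the same number, for numbers 1 to 4. For the 53 genes without overlap this would hold whichever libraries were matched, so it adds nothing to that count. The share over all genes was not computed. The median log2 ratio of the 54 was -0.79, -0.55, -0.69 and -0.73 in numbers 1 to 4. Number 2 had the smallest median and number 1 the largest. The nucleolar group varied most of the 5 between numbers, from -0.99 in number 1 to -0.29 in number 2. The median of the UTP-A genes among the 54 ran from -0.72 to -0.62. In pEtn, replicate 1 was the lowest library for 38 of the 54 genes, and in RPMI, replicate 2 was the lowest for 27. The nuclear RNAs Malat1 and Neat1, taken here as a gauge of RNA quality, differed between the media mainly in numbers 3 and 4. Their median log2 ratios were -0.06, 0.14, 1.16 and 1.21 in numbers 1 to 4. The summed level of Malat1 and Neat1 also varied widely within a medium, from 10.6 to 51.1 CPM in RPMI and from 26.2 to 58.0 CPM with pEtn. Neither passed the test (edgeR adjusted p = 0.601 and 0.763), though Neat1 did with the block (edgeR adjusted p = 0.0427) and did not with the block on the summed libraries (edgeR adjusted p = 0.123). Any part of RNA quality in the difference was not tested. Within a medium the coefficient of variation over the 4 libraries had a median over the 54 genes of 9.83% in RPMI and 10.9% with pEtn, against 16.1% and 13.8% over all genes tested. That comparison is not at like levels, since the median TPM was 93.5 for the 54 genes and 17.6 for all genes tested. The 54 were also chosen by the difference between the media.

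**Figure D3:**
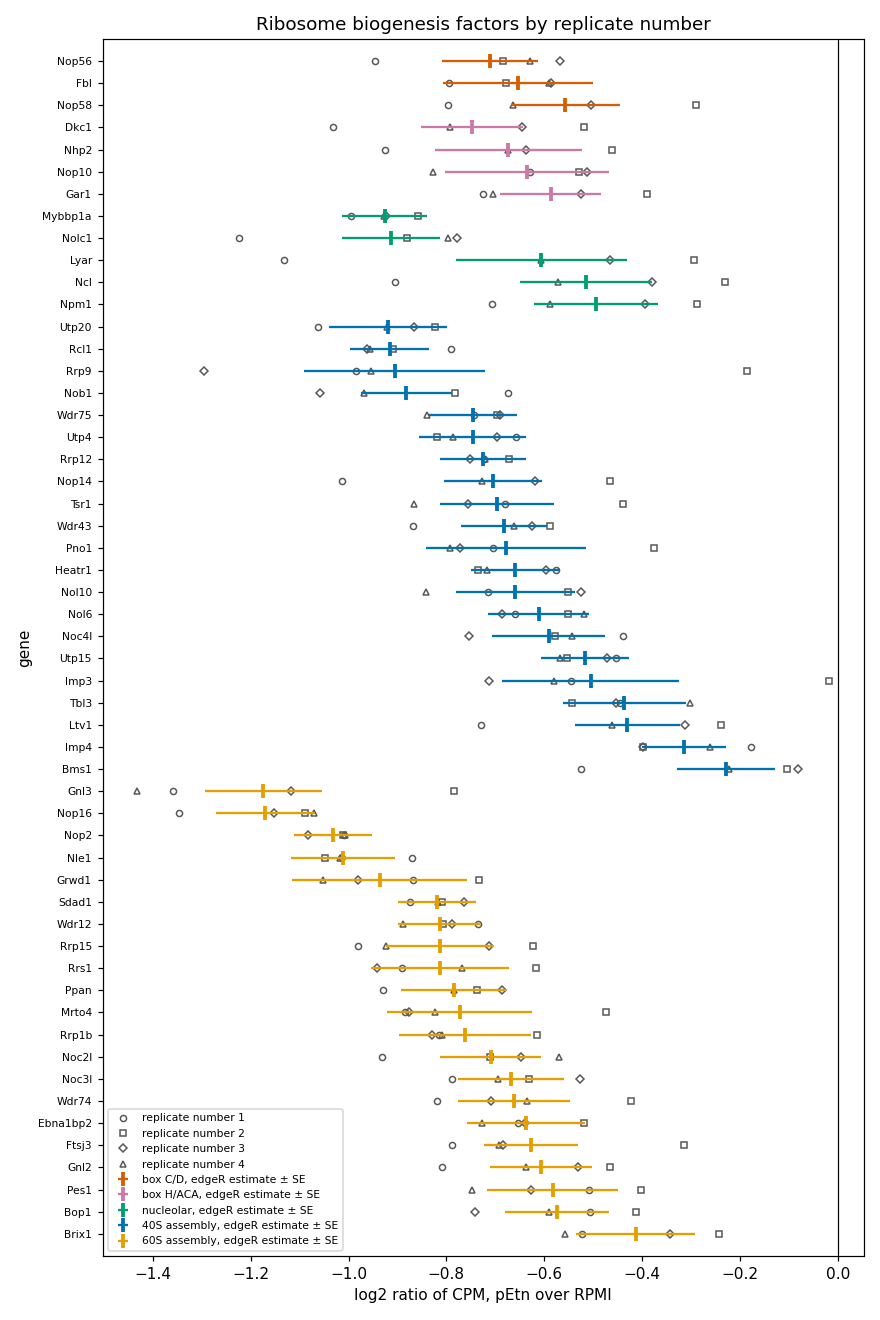
Log2 ratio of CPM, pEtn over RPMI, for the 54 genes in each replicate number (grey markers) with the edgeR log2 fold change ± SE in the colour of the group. Every marker lies below 0, from -1.43 for Gnl3 in number 4 to -0.02 for Imp3 in number 2.

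Ribosome biogenesis genes outside the 54 also had a median below 0, and none was called higher. A list of 129 such genes was compiled from general knowledge, but with earlier results of these data known, so its counts are a description. It had 126 genes in the table, all of them tested. Of these, 57 fell and 0 rose (edgeR, adjusted p under 0.05), 45.2% against 7.56% of all genes, with a median log2 fold change of -0.38. Of the 10 genes for assembly of small nucleolar particles 6 fell, of 43 for the 40S subunit 20, of 51 for the 60S subunit 26, and of 22 for the RNA exosome, RNase P and other trimming enzymes 5. The medians were -0.55, -0.37, -0.44 and -0.21. With the replicate number as a block 85 fell and 0 rose, beside 16.5% of all genes lower, with replicates 3 and 4 summed 17 fell and 0 rose, beside 2.05% lower, and with both 63 fell and 0 rose, beside 10.7% lower.

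The named genes of that list were those with the largest change. Tma16, a 60S factor, fell from 36.3, 37.7, 39.9 and 44.1 CPM in RPMI to 16.3, 20.5, 22.3 and 19.9 CPM with pEtn, by 1.0 on the log2 scale (SE 0.12, edgeR adjusted p = 0.00147). Mdn1, the giant ATPase that strips factors such as Nle1 from the pre-60S particle, fell from 209, 212, 153 and 148 to 109, 109, 83.7 and 81.6 CPM, by 0.91 (SE 0.16, edgeR adjusted p = 0.00685). Utp25, a processome protein listed under its older symbol Diexf, fell by 0.91 on the log2 scale (SE 0.12, edgeR adjusted p = 0.00211). The media did not overlap for these genes, and Mdn1 was lower in replicates 3 and 4 than in 1 and 2 of each medium.

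The other named genes all assemble small nucleolar particles, Znhit6 those of box C/D and Naf1 and Shq1 those of box H/ACA, like the core proteins above. Naf1 fell from 38.9, 47.01, 43.2 and 43.2 CPM in RPMI to 20.8, 23.8, 24.1 and 26.3 CPM with pEtn, by 0.86 (SE 0.11, edgeR adjusted p = 0.0016). Znhit6 fell by 0.87 (SE 0.13, edgeR adjusted p = 0.00305) and Shq1 by 0.84 (SE 0.16, edgeR adjusted p = 0.0105), all without overlap. Shq1 lost its call with replicates 3 and 4 summed (edgeR adjusted p = 0.0629).

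The neighbouring steps of ribosome production had medians nearer 0 than the 54 genes, which were chosen with this difference known. Of 15 genes of RNA polymerase I and its initiation factors 7 fell and 0 rose, with a median log2 fold change of -0.33, and among 79 genes for cytosolic ribosomal proteins there were 20 that fell and 0 that rose, with a median of -0.27. Of all genes 7.56% were called lower. The RNA polymerase I genes, with 46.7% called lower, were close to the other ribosome biogenesis genes, at 45.2% and a median of -0.38. All 79 estimates for ribosomal protein genes were below 0, and reads of these genes may be shared with their many processed copies. With the block, 10 and 40 fell and 0 rose, beside 16.5% of all genes lower. With replicates 3 and 4 summed 2 and 0 fell, beside 2.05%. With the block on the summed libraries 7 and 9 fell, beside 10.7%. Most of the ribosomal protein calls made under the block were not made there, and the 9 of 79 were near the share of all genes. Of 10 genes of mitosis 5 rose and 0 fell, beside 5.22% of all genes called higher, with a median of 0.54. With the block 8 of them rose, beside 15.8% of all genes, with replicates 3 and 4 summed 1 rose, beside 0.659%, and with both 5 rose, beside 8.71%. The difference between these lists and the 54 genes was not tested.

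**Figure D4:**
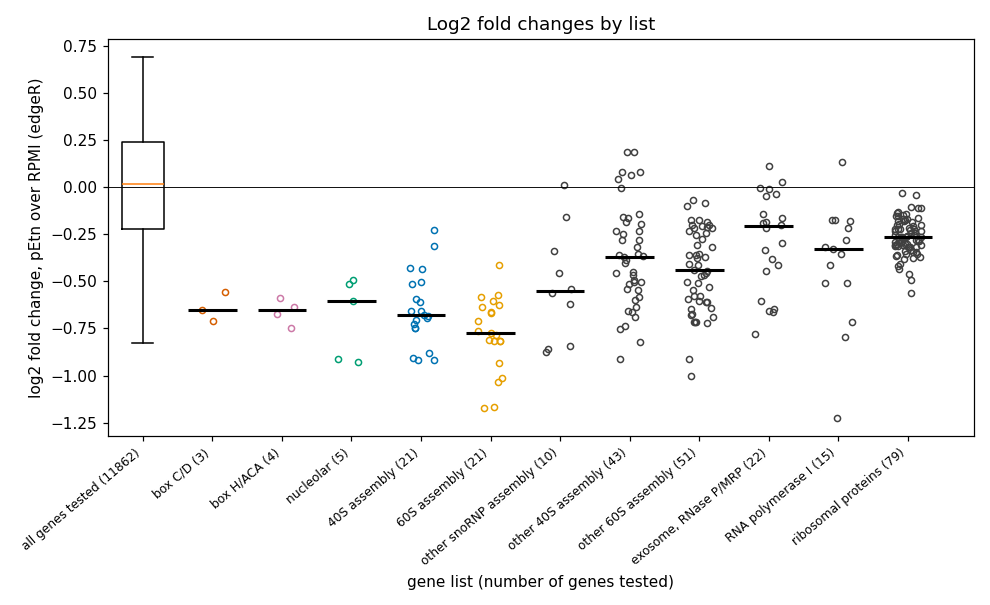
Log2 fold changes of all genes tested (box from the first to the third quartile, whiskers at the 5th and 95th percentile), of the 54 genes by group, and of related lists, with each circle a gene and each thick line a median. Medians of the groups run from -0.77 to -0.61, those of the other biogenesis lists from -0.55 to -0.21, and that of ribosomal proteins is -0.27.

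Myc, which is known to drive many of these genes, stood at 219, 283, 543 and 464 CPM in RPMI and 103, 130.1, 225 and 210.4 CPM with pEtn, overlapping between RPMI replicate 1 and pEtn replicate 3. It was lower in each replicate number, with a log2 fold change of -1.17 (SE 0.33) and an edgeR adjusted p of 0.0438, which became 5.3e-05 with the block and 0.136 with replicates 3 and 4 summed, and was up to 0.121 with a library left out (RPMI replicate 3). In both media Myc was higher in replicates 3 and 4 than in 1 and 2. Within RPMI, 23 of the 54 genes were highest in replicate 3 and 20 in replicate 4, while 18 were lowest in replicate 1 and 27 in replicate 2. Within pEtn, 30 were highest in replicate 3 but only 6 in replicate 4, against 16 in replicate 2. There 38 were lowest in replicate 1, 8 in replicate 2 and 7 in replicate 4. The 54 genes share the same libraries, so these counts are not independent and are a description only. Of the 10 tested genes of the Myc network, Myc included, 2 fell and 1 rose, beside 7.56% and 5.22% of all genes. With the block 3 fell and 2 rose, beside 16.5% and 15.8%. With replicates 3 and 4 summed 0 fell and 0 rose, and with both 3 fell and 2 rose, beside 10.7% and 8.71%. Any part of Myc in the difference was not tested.

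Promoter windows from RefSeq (build GRCm38.p6, 250 bases before to 50 after each annotated start) were matched by symbol for 46 of the 54 genes, with 50 windows. They were searched for CACGTG, the E-box that Myc with Max and other factors can bind, for CCGGAAG or CTTCCGG, the core bound by ETS factors, and for TCGCGA, a core of a motif frequent in housekeeping promoters, on both strands. CACGTG and TCGCGA read the same on either strand, and the motifs cannot share bases except the ETS core with its own complement. An E-box was in 13 of the 50 windows (26%), against 10.1% of 11257 windows of genes tested and 7.15% of all 32851 windows. Within 50 bases of the start on either side the shares were 22%, 4.45% and 2.92%. The ETS core was in 38% of the windows, against 18.4% of those of genes tested, and TCGCGA in 8%, against 4.98%. Among the other ribosome biogenesis genes 18.4% of 114 windows held an E-box and 41.2% the ETS core. Of 68 windows of cytosolic ribosomal protein genes, 11.8% held an E-box, 36.8% the ETS core and 22.1% TCGCGA. These are matches of letters, not binding.

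The 13 E-boxes are shown because 11 of them lie in the first 50 bases after the annotated start. Each is given as 30 bases in the direction of the gene, 5′ to 3′, with CACGTG in capitals, beginning with the pair that lies before the start and continuing by distance.
Imp4 (chr1:34439696-34439725, + strand): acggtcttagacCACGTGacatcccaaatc
Nop2 (chr6:125131811-125131840, + strand): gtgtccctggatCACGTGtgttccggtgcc
Pes1 (chr11:3963965-3963994, + strand): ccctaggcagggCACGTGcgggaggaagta
Utp4 (chr8:106893643-106893672, + strand): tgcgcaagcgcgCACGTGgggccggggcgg
Wdr43 (chr17:71616220-71616249, + strand): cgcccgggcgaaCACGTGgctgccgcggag
Sdad1 (chr5:92309986-92310015, - strand): agcggcgtgtccCACGTGccgtttccggtt
Nle1 (chr11:82908355-82908384, - strand): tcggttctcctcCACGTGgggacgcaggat
Tsr1 (chr11:74898092-74898121, + strand): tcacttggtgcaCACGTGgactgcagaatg
Ltv1 (chr10:13193092-13193121, - strand): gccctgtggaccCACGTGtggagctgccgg
Grwd1 (chr7:45830740-45830769, - strand): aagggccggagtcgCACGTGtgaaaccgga
Pno1 (chr11:17211540-17211569, - strand): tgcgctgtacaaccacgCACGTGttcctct
Utp20 (chr10:88826765-88826794, - strand): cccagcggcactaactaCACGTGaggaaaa
Mybbp1a (chr11:72441347-72441376, + strand): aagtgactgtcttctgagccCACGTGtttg
The first base of the E-box lay at position -121 in Imp4, at -60 in Nop2, and from 3 in Pes1 to 41 in Mybbp1a, counted from 1 at the start and from -1 before it.

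Nop2, among the 4 genes at least 2-fold lower, also held an ETS core before its start, and its last 150 bases before the start are shown with both motifs in capitals.
Nop2 (chr6:125131733-125131882, + strand): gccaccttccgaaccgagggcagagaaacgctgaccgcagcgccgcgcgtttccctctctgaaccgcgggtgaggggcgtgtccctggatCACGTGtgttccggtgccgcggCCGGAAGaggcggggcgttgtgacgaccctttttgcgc
The 13 genes with an E-box had a median log2 fold change of -0.75, from -1.03 in Nop2 to -0.31 in Imp4. The 33 genes with a window and no E-box had a median of -0.67, from -1.17 in Gnl3 to -0.23 in Bms1, so the ranges overlapped almost wholly. The 8 genes without a window in the table were Fbl, Npm1, Nol6, Rrs1, Rrp12, Gnl2, Bop1 and Tbl3, with a median of -0.61.

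**Figure D5:**
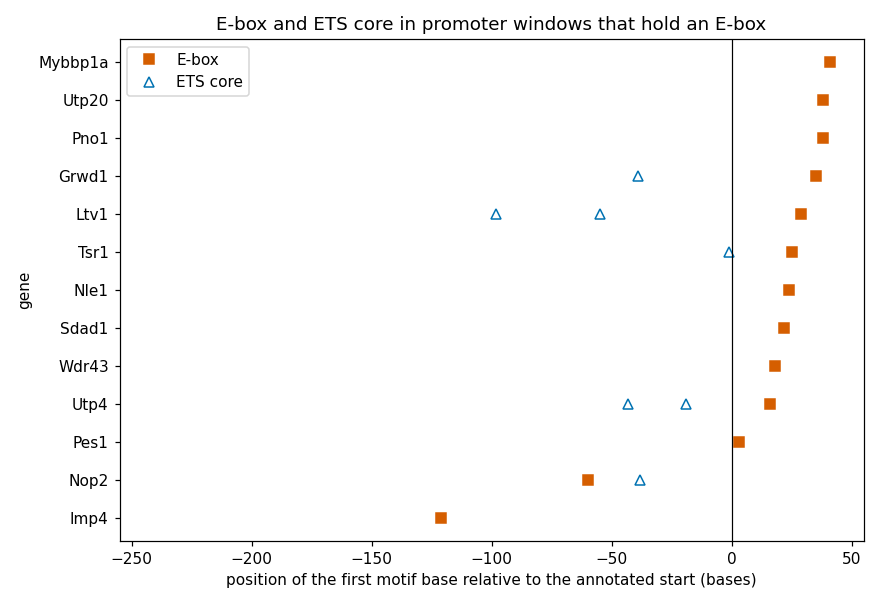
Position of the E-box (squares) and the ETS core (triangles) in the promoter windows of the 13 genes that hold an E-box, in bases from the annotated start. In 11 genes the E-box lies between 3 and 41 bases after the start, and 5 of the 13 genes hold an ETS core before the start.

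Whether the counting used strand is not stated, so a gene whose exons overlap another could share its reads. By GENCODE M21, exons of 22 of the 54 genes overlap those of another gene in the table, and in 8 that gene held at least 10% as many counts as the member, always on the opposite strand. The partners of these 8 had log2 fold changes between -0.06 and 0.50, while the members were at -0.57 or below. For Gnl3 the partner was Pbrm1, with 114% of the counts of Gnl3 and a log2 fold change of 0.16, against -1.17 for Gnl3.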

How the data were processed

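Bulk RNA was sequenced from 8 libraries, 4 in each medium, from cells sorted into lysis buffer; per the labels' protocols, cDNA was made with a Takara SmartSeq kit in 15 cycles. The submitters' processing notes name the build GRCm39, and no aligner, counter or annotation is given in the sources used here. The authors deposited, for 45232 genes, total counts (whole numbers per library), RPKM and TPM; a column the authors named CPM summed to a different total in each library, was treated as a scaled signal and not used, nor was the deposited RPKM. No row lacked a gene name.

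The test on counts was that of edgeR 4.0.16, run in R 4.3.3 (filterByExpr, TMM, robust quasi-likelihood F test, Benjamini-Hochberg over 11862 genes tested, call at adjusted p under 0.05), which was first tested on simulated counts. CPM is after TMM scaling. Log2 ratios per replicate number used CPM + 0.5. DESeq2 1.42.0 and limma 3.58.1 (log2 of TPM + 1 or + 0.1) were alternatives. The members and lists were chosen with earlier results of these data known. Every gene is accounted for. Values in every library are given, within each group, for genes with the highest and lowest TPM and the largest and smallest change and for 9 fixed genes, and for others chosen after their values were seen. Of the other list, up to 6 called genes per direction with a mean of at least 5 CPM were named.

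Deviations from group means correlated between same-numbered libraries of the media at 0.57, 0.55, 0.44 and 0.45 over 11862 genes, each above the 0.1 set for pairing. Unlike numbers also passed 0.1: RPMI replicate 3 with pEtn replicate 4 (0.41), RPMI 4 with pEtn 3 (0.38) and RPMI 2 with pEtn 1 (0.15). Pairing within numbers 3 and 4 is therefore not shown by this check. Equal numbers were treated as pairs in the ratios per number and in the fits with the block, while the main fit was unpaired. What a number stands for is not stated. The chi-square per gene between replicates 3 and 4 was 11.2 in RPMI and 5.04 with pEtn, against 51.1 to 107 for the other pairs of a medium (genes with at least 20 counts). Amplified cDNA without molecular identifiers varies beyond counting noise, so this value cannot tell separate cultures from repeat preparations of 1 culture; the labels list them as distinct samples, which was followed, and counts with them summed are given beside the results. Counts of the 54 genes ran from 463 to 104335 per library. Protein sequences were not used here.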

Additional observations from a re-analysis of the deposited data

Results flagged for a closer look

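A library far from the other 3 of its medium was seen in 9 of 128 groups of 4 examined, where chance flags about 1 in 20, and the gap of that library as a share of the group's range is given for each. In RPMI, replicate 2 was far below the rest for Wdr74 (gap 0.840, 42.7 CPM) and Ftsj3 (0.854, 163 CPM) and far above them for Heatr1 (0.832, 221 CPM), and replicate 3 was far above them for Ppan (0.984, 91.8 CPM). With pEtn, replicate 1 was far below the rest for Tsr1 (0.927, 108 CPM), Ltv1 (0.847, 59.96 CPM), Bms1 (0.840, 103 CPM) and Ebna1bp2 (0.836, 89.1 CPM), and replicate 3 was far above them for Pes1 (0.886, 122 CPM). In 4 of the 9 the library was pEtn replicate 1.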

How the results depend on the processing

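The median log2 fold change of the 54 genes stayed between -0.72 and -0.63 in every alternative run, including each library left out. The number of them called lower was 51 and ran from 49 to 53 with DESeq2 size factors, DESeq2, no filter, a filter of 5 CPM in 4 libraries, the replicate block, limma on TPM, and the block with replicates 3 and 4 summed (51, an alternative chosen after seeing the data). It was 25 with replicates 3 and 4 summed without the block, and 40 to 51 with a library left out. The other ribosome biogenesis genes called lower numbered 57, and 17 with replicates 3 and 4 summed, 85 with the replicate block and 40 to 59 with a library left out; 0 were called higher in any of these fits. Over all genes 1516 were called in either direction, 1504 with DESeq2 size factors and 2262 with DESeq2. The DESeq2 test thus called more genes of every kind. Without a filter 1333 were called, with the filter of 5 CPM 1449, and with limma on TPM + 1 or + 0.1 1471 or 1460. There were 3830 with the replicate block, 325 with replicates 3 and 4 summed, 2329 with both, and 796 to 1638 with a library left out. Leaving out RPMI replicate 3 gave 796 and RPMI replicate 4 gave 861, and leaving out pEtn replicates 1, 3 or 4 gave 997, 941 or 817. Summing leaves 3 libraries a medium; any other cause was not tested. Cd8a, at 0.10, changed sign without pEtn replicate 1 (-0.021), ran up to 0.207 with another library left out, and was called in none of these fits. Among the values of single named genes under the alternatives, 443 kept direction and call, 58 kept direction and lost the call, 8 gained it and 1 (Cd8a) changed sign. The lowest count of a member in a library was 463.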
